A study of Homo sapiens with 8 samples.

Results

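The RNA of CHERP-depleted cells was compared form by form between the whole cell and the cytoplasm, to find which splice forms were under-represented in the cytoplasm. An event was a member when the whole-cell and the cytoplasmic rMATS tables both listed it with the same gene, strand and coordinates. This held for 33604 events, out of 89379 in the whole-cell tables and 43559 in the cytoplasmic ones, and 24623 of them had enough reads in both fractions to be tested. They were 1138 retained introns (RI), 17637 skipped exons (SE), 1354 events with a choice of 5′ splice site (A5SS), 2136 with a choice of 3′ splice site (A3SS) and 2358 pairs of mutually exclusive exons (MXE). For each event the inclusion level is the share of transcripts that carry the longer form (for MXE, the exon whose reads rMATS counts as inclusion), from reads divided by the effective length of each form. A difference is the cytoplasmic minus the whole-cell mean, in percentage points.

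An intron that stays in an otherwise finished, polyadenylated transcript usually keeps that transcript in the nucleus, where it is either spliced later (a detained intron) or degraded. Transcripts that do leave with an intron or a "poison" exon tend to meet a premature stop codon and nonsense-mediated decay (NMD) during translation. CHERP is an RS-domain protein of the nucleus that associates with the U2 snRNP, the particle that recognises the branch site ahead of the 3′ splice site.

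All libraries came from U2OS, a human osteosarcoma line. The CHERP-depleted cells received the siRNA CHERP#2 at 20 nM for 48 h, and the control cells an siRNA against EGFP, a gene these cells do not carry, at the same dose and time. RNA was taken from whole cells or from the supernatant of cells lysed with NP-40, and poly(A)+ RNA was sequenced from 2 libraries per group, 8 in all, of which the 4 with CHERP siRNA are the subject here. A single line and a single siRNA were used, and the study's methods describe the libraries of a group as biological replicates.

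The whole-cell libraries with CHERP siRNA held 35664568 and 34071875 reads over all events of their tables and the cytoplasmic ones 6580099 and 5476148. The whole-cell tables list more events. Over the matched events the reads were 13898563 and 13167419 in the whole cell and 4975972 and 4141872 in the cytoplasm. A tested intron had a median of 134.8 reads per whole-cell library and 51 per cytoplasmic library. The effective length of the shorter form was, MXE aside, 144 in the whole-cell tables and 73 in the cytoplasmic ones, which shows a different read length. The fraction and the read length thus cannot be told apart in any comparison of the fractions here. Within a fraction, both siRNAs had the same effective lengths. CHERP itself had 103 and 77 event reads in the whole-cell control libraries against 3 and 10 after CHERP siRNA, and 31 and 21 against 3 and 4 in the cytoplasm. Of 10 markers of the line, 7 had any event, and COL1A2, SPARC and TWIST1 had none. VIM, a mesenchymal marker, was high in every library, and FN1 had between 768 and 21074 event reads. The others had 176 or fewer in any library. RUNX2 had 0 and 3 in the whole cell with CHERP siRNA, ALPL had none there, and CDH2 had none in the cytoplasm. Of the 12 markers of other cell types only CDH1 and KRT8 had any event. With CHERP siRNA, KRT8, a keratin gene with 51 named pseudogenes, had 17058 and 16560 event reads in the whole cell and 577 and 445 in the cytoplasm. CDH1 had between 19 and 34 in these libraries and 2 or 3 in each library with EGFP siRNA. Of 16 nuclear noncoding RNAs listed as a check of the fractions, 4 could be tested. None was lower in the cytoplasm, and PVT1 and HOTAIRM1 were higher. MALAT1 and NEAT1 had no event, so the purity of the cytoplasmic fraction was not tested by them.

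The sites that bound the introns and exons described first are given here, since they show what the spliceosome met at introns without the doubt marks explained below and at 1 exon of a splicing factor. Other forms had larger differences. Each 5′ site runs from the last 3 exon bases into the intron and each 3′ site ends 3 bases into the next exon, read 5′ to 3′ on the gene's strand from the GRCh37 (hg19) genome, with the GT and AG of the intron in capitals. FNBP1L (chr1:94016663-94017965, plus strand), NDUFAF7 (chr2:37468935-37469777, plus), NOL12 (chr22:38087432-38089338, plus), GAS5 (chr1:173833645-173833812, minus) and SNHG1 (chr11:62621306-62621489, minus) are introns that were lower in the cytoplasm.
FNBP1L 5′ site: aagGTgcag
FNBP1L 3′ site: tttttcctcctggactgcAGgtt
NDUFAF7 5′ site: aagGTaatt
NDUFAF7 3′ site: gttttcctctttttaaatAGggt
NOL12 5′ site: tagGTaatg
NOL12 3′ site: aagtgcctgttgctctccAGgtg
GAS5 5′ site: cagGTtagt
GAS5 3′ site: tatttttcatcttcaaacAGgca
SNHG1 5′ site: gagGTtagt
SNHG1 3′ site: acagctttgtttttctctAGgta
RBM8A (chr1:145508076-145508209, plus), IMP4 (chr2:131100509-131100658, plus) and C17orf76-AS1 (chr17:16342375-16342640, plus) are introns that were higher in the cytoplasm.
RBM8A 5′ site: ccgGTgagt
RBM8A 3′ site: gtgtatgtcccttatagaAGagg
IMP4 5′ site: atgGTagga
IMP4 3′ site: tgggcctgctgttcccacAGctg
C17orf76-AS1 5′ site: gagGTaggc
C17orf76-AS1 3′ site: ggatcactcttttgtggtAGggc
The SRSF6 exon (chr20:42087793-42088060, plus) is annotated in NMD transcripts of this splicing factor and in no coding one. It was the form of an SR protein that fell most. Its sites are the 3′ site ahead of it and the 5′ site after it.
SRSF6 exon 3′ site: ttgatgtttcaatttgaaAGtga
SRSF6 exon 5′ site: gatGTaagt

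Retained introns were mostly lower in the cytoplasm of CHERP-depleted cells. The median inclusion of the 1138 introns was 6.51% and 6.73% in the whole-cell libraries and 1.62% and 1.51% in the cytoplasmic ones. The libraries of the fractions did not overlap, and the difference of the means was -5.06 points, with an exact two-sided permutation p of 0.333, the smallest that 2 libraries against 2 can give. Across introns, 878 (77.2%) had a lower mean in the cytoplasm, and the median difference of single introns was -1.95 points. Introns at an inclusion of 10% or more numbered 478 and 483 in the whole-cell libraries and 343 and 334 in the cytoplasmic ones. Introns with no inclusion read numbered 60 and 40 in the whole cell and 205 and 249 in the cytoplasm, where fewer reads were counted.

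**Figure D1:**
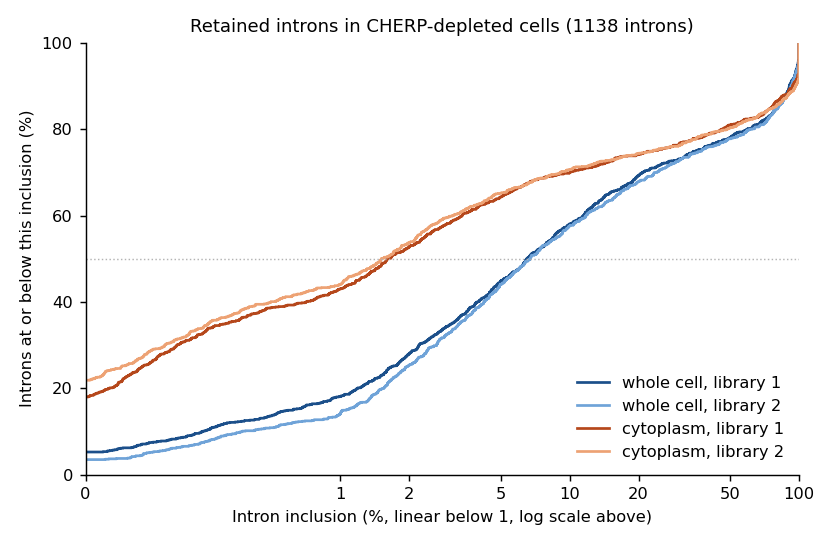
Cumulative share of the 1138 tested introns (y axis, %) at or below each inclusion level (x axis, %, linear below 1 and logarithmic above) in the 4 libraries with CHERP siRNA. The dotted line marks the median, which the cytoplasmic libraries cross at 1.62% and 1.51% and the whole-cell libraries at 6.51% and 6.73%.

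The pooled inclusion, with all introns summed, moved far less than the median, from 7.27% and 7.65% in the whole cell to 7.02% and 7.29% in the cytoplasm. Both forms were also followed separately, as reads per effective length scaled by the median ratio of gene levels. Over the 1138 introns the median retained form had 0.0346 and 0.0349 in the whole cell against 0.0133 and 0.0113 in the cytoplasm, while the median spliced form had 0.314 and 0.325 against 0.524 and 0.529. By the median, the retained form was lower and the spliced form higher in both cytoplasmic libraries. Summed over all introns the retained form was not lower, with 182.8 and 186.8 in the whole cell and 193.5 and 197.6 in the cytoplasm, so the sum and the median differ in direction.

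A single intron was called when its adjusted p (quasi-binomial test, Benjamini-Hochberg over the event type) was under 0.05 and its difference at least 10 points. By this rule 141 introns (12.4% of those tested) were lower in the cytoplasm and 21 (1.85%) higher, 14.2% in all. The libraries of the fractions did not overlap in any called intron, nor in 787 (69.2%) of all introns tested. An intron below 10% inclusion in the whole cell cannot be called lower by this rule, and with the adjusted p alone 341 introns were lower and 31 higher. With every residual counted in the dispersion 78 were lower and 14 higher, and 96 and 99 were called in all without cytoplasmic libraries 1 and 2.

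Some introns hold an annotated exon of another transcript or lie in genes with processed pseudogenes, where reads of another RNA can count as intron reads. Of the 1138 introns, 823 carried neither mark and matched an annotated intron, and 92 of these were lower and 13 higher. The 92 lower introns lay in 86 genes, with a median inclusion of 20.4% in the whole cell and 1.87% in the cytoplasm, and 69 of them had under 5% in the cytoplasm. Summed over these introns, the retained form had scaled levels of 22.4 and 23.1 in the whole cell and 6.29 and 6.43 in the cytoplasm. The spliced form had 76.2 and 78.5 against 93.7 and 98.8 in these introns, which were chosen for that difference. Over all 823 clean introns the summed retained form was higher in the cytoplasm, with 96.1 and 98.0 in the whole cell and 110 and 113.2 in the cytoplasm. The rule for named introns took the 10 largest decreases, of which FNBP1L and TROAP carried neither mark and 6 held an annotated exon. NDUFAF7, CDK5RAP3, NOL12, CCS and ZNF655, the next largest without a mark and with at least 20 mean reads, were added after their values were seen.

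The last intron of FNBP1L, a membrane-shaping F-BAR protein, had 52.3% and 63.9% inclusion in the whole cell and 6.68% and 10.1% in the cytoplasm. Its difference was -49.7 points (adjusted p = 9.1e-04, quasi-binomial test). Intron 13 of TROAP, a spindle protein, had 52.1% and 74.4% against 10.6% and 16.6%, a difference of -49.6 points (adjusted p = 0.00724). The fractions stood well apart for both, but the whole-cell libraries of TROAP differed by more than 20 points between themselves, and its call was lost without cytoplasmic library 1.

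Intron 5 of NDUFAF7, a mitochondrial methyltransferase needed for complex I, had 36.7% and 45% against 2.59% and 2.17%. Intron 7 of CDK5RAP3 had 32.5% and 37.9% against 0.63% and 2.13%. The NOL12 intron, in the 3′ UTR of the annotated transcript of this nucleolar RNA-binding protein, had 32.1% and 39.4% against 4.10% and 3.24%. All 3 introns had low inclusion in the cytoplasm, with differences of -38.5, -33.8 and -32.1 points. Their adjusted p were 5.5e-04, 0.00103 and 2.8e-04 (quasi-binomial test).

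Intron 3 of CCS, the copper chaperone of superoxide dismutase, had 54.1% and 24.1% against 2.89% and 1.44%. Intron 3 of ZNF655, a zinc-finger gene, had 50.7% and 45.4% against 19.6% and 16.2%. Here the ZNF655 intron kept a sizeable cytoplasmic share while the CCS intron did not, and both calls held in every alternative run for them (14 for CCS and 16 for ZNF655).

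The rule also named introns that hold annotated exons. In DCAF7, a WD40 adaptor, an intron of 4965 nt had 81.0% and 82.7% against 30.1% and 29.8%. In EWSR1, an RNA-binding protein of the FET family, an intron of 2778 nt had 65.8% and 64.4% against 20.0% and 13.7%. QKI, an RNA-binding STAR protein, had 50.4% and 70.2% against 6.67% and 17.6%. These introns fell by 51.9, 48.3 and 48.1 points. All 3 calls were lost with effective lengths ignored, and those of EWSR1 and QKI without cytoplasmic library 2 and 1, respectively. The INO80E intron, which fell by 77.8 points, held 4 annotated exons and had 3 spliced reads in each cytoplasmic library and none in the whole cell, and RPS16, RPL17 and CTDNEP1 lay in genes with pseudogenes.

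**Figure D2:**
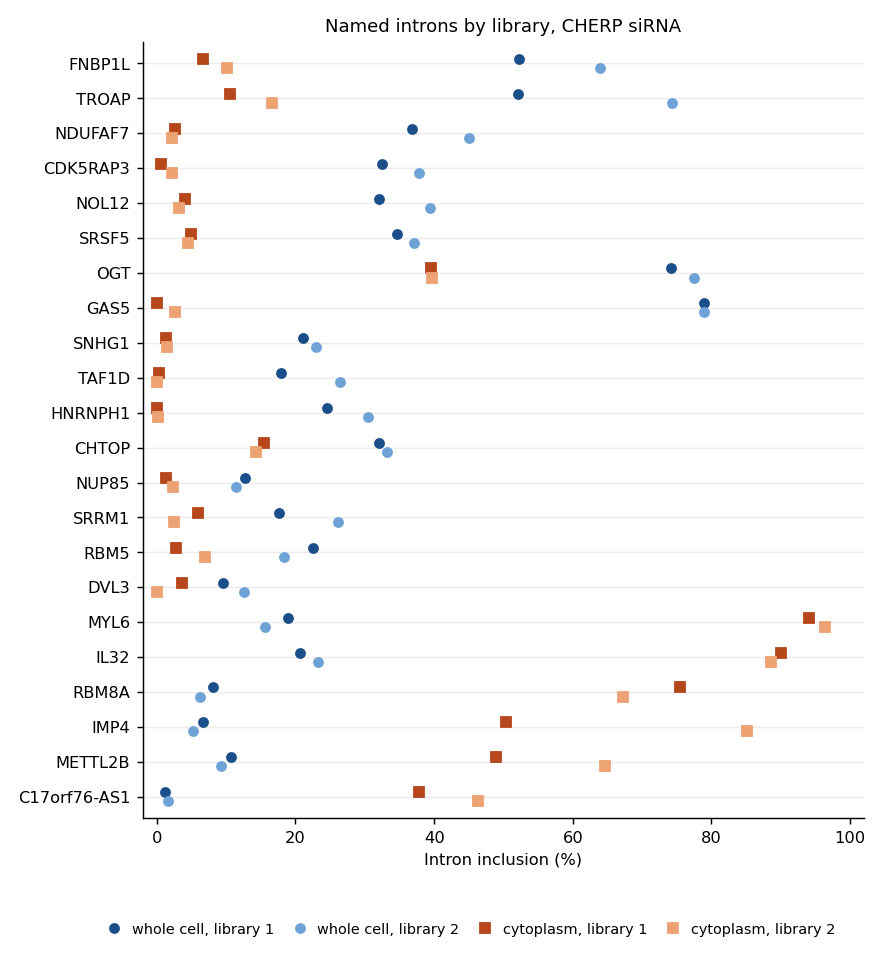
Inclusion (x axis, %) of named introns in each of the 4 libraries with CHERP siRNA, with circles for whole-cell and squares for cytoplasmic libraries. From FNBP1L to DVL3 the cytoplasmic squares lie below the whole-cell circles, and from MYL6 to C17orf76-AS1 above them.

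The list of host genes of small nucleolar RNAs (snoRNAs), which are cut from the introns of these genes, had the highest share of called introns among the lists tested. Of the 11 tested introns in GAS5, SNHG1 and TAF1D, 9 were lower and none higher, beside 12.4% and 1.85% of all introns, with a median of -17.2 points beside -1.95. The list leaves out C17orf76-AS1, a further snoRNA host, where 2 of 7 tested introns were higher and 1 lower. Several of the GAS5 introns overlap each other, and TAF1D is also on the list of detained introns, so these are not 9 separate measurements. With EGFP siRNA, in separate libraries, 9 of 11 were lower as well. The list is one of genes, and an intron on it need not hold a small RNA itself. Among all tested introns, those with an annotated small RNA gene inside were lower with CHERP siRNA in 3 of 19 cases (15.8%). None of these was higher, and their median was -1.996 points, close to that of all introns. Whether a snoRNA within the intron plays a part was not tested.

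In GAS5 the intron of 168 nt had 22.4% and 24.5% inclusion in the whole cell and 0.313% and 0.846% in the cytoplasm. A wider GAS5 event of 370 nt, which holds 2 annotated exons, had 78.9% in both whole-cell libraries and 0% and 2.67% in the cytoplasm. Intron 6 of SNHG1 had 21.1% and 23.0% against 1.33% and 1.49%. In all 3 little of the inclusion remained in the cytoplasm, with adjusted p of 5.9e-06, 7.7e-05 and 4.0e-04 (quasi-binomial test). TAF1D, which encodes a TATA-box factor of RNA polymerase I and hosts snoRNAs, had 2 introns lower, and the one that contains SNORA32 had 17.9% and 26.4% against 0.291% and 0%.

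Genes known for detained introns, or for introns that answer to O-GlcNAc, had 3 of 11 introns lower and none higher, with a median of -11.4 points. Over all introns, 12.4% were lower and 1.85% higher, with a median of -1.95 points. The 3 lower introns on the list were 1 of OGT and the 2 of TAF1D already given. The OGT intron 4, the detained intron of the enzyme that adds O-GlcNAc to proteins, had 74.2% and 77.5% in the whole cell and 39.6% and 39.7% in the cytoplasm. Its difference was -36.2 points (adjusted p = 0.0399). The fractions were far apart, but the spliced form had only 5 reads in each cytoplasmic library, the intron holds 3 annotated exons, and the call was lost when either cytoplasmic library was left out. With effective lengths ignored the difference was -1.89 points.

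Among splicing factors, SRSF5 was the only SR protein with tested introns. Its intron of 1215 nt, which holds 3 annotated exons, had 34.7% and 37% against 4.94% and 4.55%, a difference of -31.1 points (adjusted p = 5.9e-06). All 4 SRSF5 events were negative, and 1 was called. HNRNPH1, which binds G-rich RNA, had intron 11, of 650 nt, at 24.5% and 30.4% against 0.0505% and 0.196%, with adjusted p of 2.7e-05 in a gene with 3 pseudogenes. Of the 12 hnRNP introns 1 was lower and 2 were higher, those of HNRNPH3 and HNRNPM, and the median was -0.67 points. These counts stand beside 12.4% lower and 1.85% higher over all introns, with a median of -1.95 points.

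CHTOP, a subunit linked to the TREX export complex that controls its own intron 2, had 32.1% and 33.2% against 15.5% and 14.3%. NUP85, a nuclear pore subunit, had an intron at 12.7% and 11.5% against 1.34% and 2.39%. These were the 2 lower introns among the 5 tested of mRNA export and nuclear pore genes, whose median was -9.34 points. Over all introns 12.4% were lower, with a median of -1.95 points. RBM5, an RNA-binding protein of the early spliceosome, had 22.5% and 18.3% against 2.78% and 6.93%, the only call among 3 introns of U2 snRNP proteins and CHERP partners. The RBM5 call was lost when either cytoplasmic library was left out, and that of NUP85 without whole-cell library 1 or cytoplasmic library 1.

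For the other lists the counts were small, and they stand beside shares of 12.4% lower and 1.85% higher over all introns. The speckle and LUC7-like proteins had 1 of 5 introns lower, in SRRM1 (17.6% and 26.1% against 5.88% and 2.49%), a call lost without either cytoplasmic library. The CLK and SRPK kinases had 1 of 4, in CLK3 (11.9% and 9.69% against 0.919% and 0.462%), a call lost without whole-cell library 1 or cytoplasmic library 2. The NMD factors had 1 of 4 higher, the RBM8A intron described below, and none lower. Ribosomal protein genes had 4 lower and 3 higher of 35, with a median of -0.14 points, and none of the 7 was clean. Mitotic genes (2 introns), secretory and membrane genes (6) and line markers (4) had none called.

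Introns that the study followed by RT-PCR were looked up by gene, so an event may not be the intron that was amplified. Of these genes only DVL3, a Wnt signal transducer, had an intron listed in both fractions. The study reported less retention of a DVL3 intron after CHERP depletion, which is a contrast of siRNAs and not of fractions. The DVL3 event had 9.54% and 12.6% in the whole cell and 3.66% and 0% in the cytoplasm. The difference was -9.25 points (adjusted p = 0.0358), which is under the 10 points of the call. The introns of CANT1, C1orf63, RPGR (which the study tested in a minigene), PODXL and SUPT7L were in the whole-cell table alone. E2F8, a control of the study's fractionation, had none in either table. The share of all these introns in the cytoplasm was thus not measured here.

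Such one-sided listing was common for introns. The whole-cell table held 2118 introns that the cytoplasmic one did not, while only 97 were in the cytoplasmic table alone. Those 2118 had a median of 54 reads per whole-cell library, beside 78.5 for the 1599 matched ones, and a median inclusion of 8.38% and 8.68% where at least 10 reads were present. The deeper whole-cell libraries could list more events of every type, and how much of the gap comes from depth was not tested.

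The introns that were lower shared several features. Length among them is not independent of the call, which divides reads by the effective length of each form. Their median length was 437 nt against 239 nt for introns not called, and among clean introns 314 against 213.5 nt. The share called lower rose from 4.78% of introns under 100 nt through 7%, 14.6% and 17.4% to 20.6% of those of 1000 nt or more, while the median difference went from -1.13 to -5.07 points. Long introns were also more retained to begin with, at a median of 19.1% in the whole cell against 3.34% for the shortest, and the part of length alone was not tested. Introns with G+C under 40% were lower in 23.3% of cases and those with 60% or more in 7.37%.

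The 5′ and 3′ site scores, in bits against annotated introns, were nearly the same in the lower introns (medians 7.19 and 7.90) and in those not called (7.35 and 7.92). By position, 9.26% of introns at the start of the transcript, 12.7% of internal and 13.4% of last introns were lower. By place, 117 of 966 introns within the coding region were lower and 11 higher, against 5 and 7 of 54 in the 5′ UTR, 7 and 0 of 50 in the 3′ UTR and 12 and 3 of 51 in noncoding transcripts. By the inclusion in whole control cells, libraries that this contrast does not use, introns from 10% to under 25% and from 25% to under 50% were lower in 34.6% and 35.5% of cases, and those at 50% or more in 12.5%. Below 10% the rule allows few calls.

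**Figure D3:**
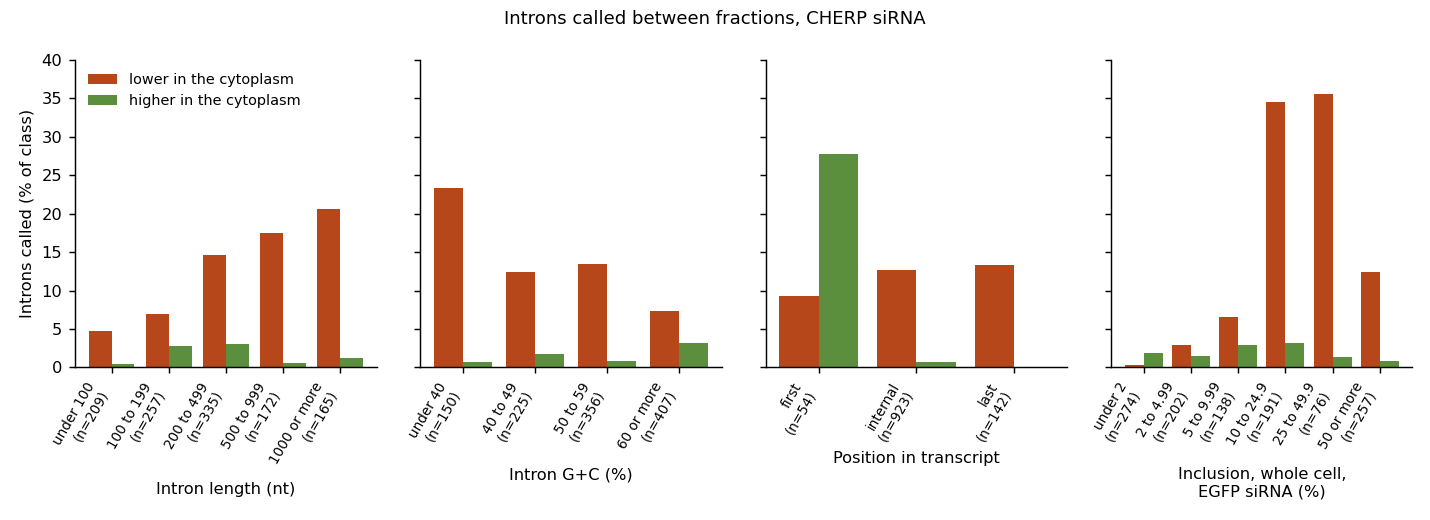
Share of introns (y axis, %) called lower (red) or higher (green) in the cytoplasm with CHERP siRNA, by intron length, G+C, position in the transcript and inclusion in the whole-cell EGFP siRNA libraries, with the number of introns in each class. The bars for lower introns rise with length to 20.6%, and the tall green bar is that of introns at the start of the transcript, at 27.8%.

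The 21 introns that were higher in the cytoplasm had a median length of 207 nt, beside 239 nt for introns not called, and a median G+C of 64.0% beside 56.3%, and 15 of them were the first of their transcript. Introns at the start of the transcript were higher in 15 of 54 cases (27.8%) against 6 of 923 internal ones (0.65%). In RBM8A, a core protein of the exon junction complex, intron 2 had 8.04% and 6.28% in the whole cell and 75.4% and 67.3% in the cytoplasm (adjusted p = 2.7e-05). The first intron of IMP4, a factor of ribosome assembly, had 6.67% and 5.25% against 50.4% and 85.1%. That of METTL2B, a tRNA methyltransferase, had 10.7% and 9.33% against 49% and 64.7%. The fractions were far apart in each, although the cytoplasmic libraries of IMP4 differed from each other by more than 30 points.

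In C17orf76-AS1, a noncoding snoRNA host also named SNHG29, the first intron had 1.19% and 1.55% against 37.8% and 46.3%. Another intron of the same gene, of 166 nt from position 16342729, had 73.9% and 72.1% against 55.5% and 56.7% and was lower, while one of 245 nt from the same position was higher by 12.4 points. IL32, a cytokine, had 20.7% and 23.3% against 90.1% and 88.6%, on 1 spliced read in each cytoplasmic library. MYL6, a myosin light chain with 5 pseudogenes, had 18.9% and 15.6% against 94.1% and 96.4%. Gene levels also moved with G+C between the fractions, as given below, and the part of G+C in the increases was not tested.

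The introns were then set beside the same contrast in control cells, which rests on 4 other libraries. With EGFP siRNA the median intron inclusion was 7.96% and 8.40% in the whole cell and 2.65% and 2.75% in the cytoplasm, and 109 introns were lower and 15 higher of 1197 tested. Of the 1092 introns tested in both, 135 were lower with CHERP siRNA and 133 of these had the same sign with EGFP siRNA. Calls overlapped for 71 introns, which is 52.6% of those lower with CHERP siRNA and 70.3% of those lower with EGFP siRNA. Over all 1092 introns the Pearson correlation of the differences was 0.78, as a description, since introns of a gene share reads.

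The difference of the differences was tested as the interaction of fraction and siRNA. No intron of 1092 (0%) and no skipped exon of 16637 (0%) passed an adjusted p of 0.05 in the quasi-binomial test. At an unadjusted p under 0.05 there were 33 introns and 323 exons (23 and 249 with the larger of the moderated and own dispersion), and the smallest adjusted p were 0.59 and 0.939. The median difference of differences was 0.01 points for introns, with quartiles of -1.84 and 2.19. Differences between the siRNAs were thus not detectable at this depth. Without whole-cell EGFP library 2, 2 introns of SLC25A3, a mitochondrial phosphate carrier, passed (adjusted p = 0.031 without that library and 0.969 with it, quasi-binomial test).

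**Figure D4:**
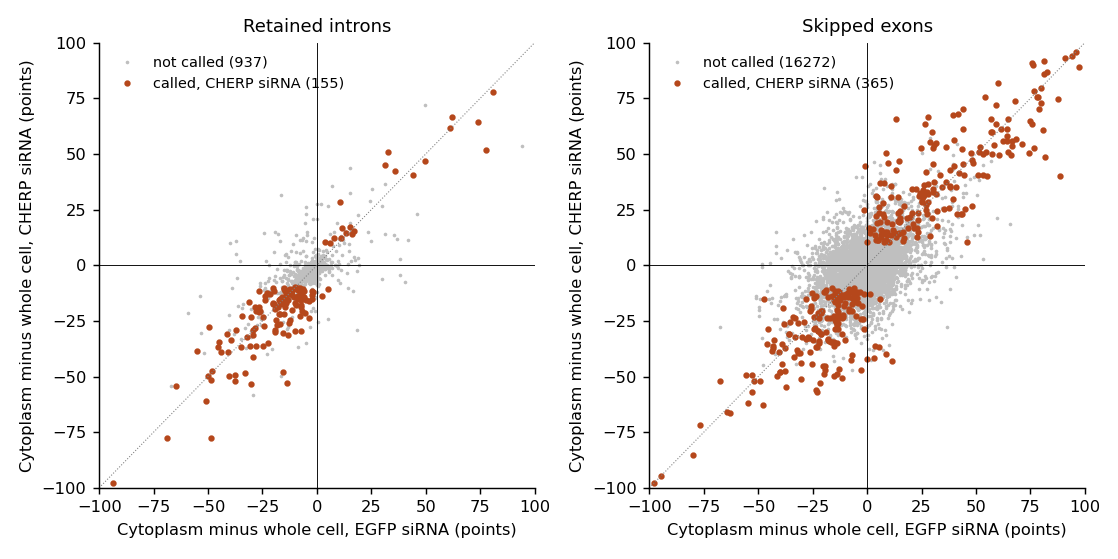
Difference in inclusion between cytoplasm and whole cell (percentage points) with EGFP siRNA (x axis) and with CHERP siRNA (y axis) for 1092 introns and 16637 exons tested in both, with events called with CHERP siRNA in red. Of 135 introns called lower with CHERP siRNA, 133 lie on the negative side for EGFP siRNA too.

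Several introns named above had differences of like size with both siRNAs. NOL12 differed by -32.1 points with CHERP and -32.3 with EGFP siRNA, TROAP by -49.6 and -50.1, and NUP85 by -10.2 and -10.3. SRSF5 differed by -31.1 and -29.1 points, with unadjusted and adjusted interaction p of 5.4e-04 and 0.59, the smallest adjusted value. Others were called with CHERP siRNA alone. QKI differed by -48.1 and -15.4 points, CHTOP by -17.7 and -7.40 and RBM5 by -15.5 and -4.94. None of these passed the interaction test, so they were not shown to differ between the siRNAs.

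Skipped exons as a whole did not separate the fractions. Their median inclusion was 96.6% and 96.4% in the whole cell and 96.2% and 96.8% in the cytoplasm, and the libraries overlapped (exact permutation p = 1). By the same rule 184 exons (1.04%) were lower and 210 (1.19%) higher, 2.23% in all. These single calls were less firm than those of introns. A limma test on log odds called 12 exons, 3 lower and 9 higher, and none was called by the quasi-binomial test when every residual entered the dispersion, where 806 had an unadjusted p under 0.05. The direction also moved with the length correction, and with effective lengths ignored 92 exons were lower and 335 higher instead.

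Exons annotated in NMD transcripts but in no coding one were lower in 26 cases and higher in 16 of 1536. They made up 14.1% of lower, 7.62% of higher and 8.71% of all tested exons. Exons over 300 nt were lower in 40 and higher in 12 of 713. The share of exons whose length is a multiple of 3 was 44% in lower, 43.3% in higher and 44.2% in all exons. Among exons with a known number, the second exon of the transcript made up 61.8% of higher, 42.6% of lower and 20.2% of all tested exons.

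Exons of splicing factors that lie in NMD or noncoding transcripts were among the decreases. The SRSF6 exon described above, in a gene with 2 pseudogenes, had 73.3% and 72.8% in the whole cell and 14.8% and 21.7% in the cytoplasm, a difference of -54.8 points (adjusted p = 1.7e-14, quasi-binomial test). With EGFP siRNA it had 30.8% and 67.9% in the whole cell and 10.9% and 13% in the cytoplasm. An exon of 312 nt of TRA2A, a splicing activator, in a transcript with no defined coding sequence, had 32.7% and 32.9% against 6.53% and 9.53%. The NMD exon of HNRNPA2B1 had 37.1% and 40.9% against 16.4% and 21.3%. The cytoplasmic libraries were the lower ones in all 3, although the TRA2A and HNRNPA2B1 calls were lost without cytoplasmic library 1. SR and TRA2 proteins had 3 of 34 exons lower and none higher, beside 1.04% and 1.19% of all exons. Their median was -0.71 points beside 0 for all exons, and 2 of the 3 are overlapping forms of TRA2A.

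An NMD exon of ACIN1, an RS-rich protein of the exon junction complex, had 18.5% and 21.4% against 0.333% and 0.363%. An NMD exon of SRRM2, a scaffold of nuclear speckles, had 48.8% and 34.4% against 12.4% and 5.05%. These were the 2 called of 79 exons of speckle and LUC7-like proteins, and none was higher, beside 2.23% called of all exons. An exon of 289 nt near the 5′ end of STAU1, a double-stranded RNA-binding protein, had 81.1% and 70.5% against 12.8% and 25.2%. An exon of 279 nt in a noncoding transcript of PXN, a focal adhesion protein, had 80.6% and 80.9% against 11% and 18%. The cytoplasmic libraries were the lower ones in all 4, and the STAU1 call was lost without cytoplasmic library 1.

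The largest increases lay mostly in genes with pseudogenes, 7 of the 8 named by rule. The PPIA exon, in the gene of cyclophilin A with 89 named pseudogenes, had 1.64% and 1.85% against 98.3% and 96.5%. Its skipping reads numbered 14685 and 13394 in the whole cell and 1 and 2 in the cytoplasm. Nearly all whole-cell reads of the event thus came from the skipping junction, and hardly any cytoplasmic ones did. UQCRH, RAC1, ANXA2, ZDHHC4 and AURKB were among the other such genes, and PALLD, an actin-binding protein, was the exception, with 9.93% and 8.11% against 100% and 81.5%.

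Outside these genes, exon 3 of U2AF1, the small subunit of the 3′ splice site recognition factor, had 58.5% and 57.6% against 74.8% and 80.1% (adjusted p = 9.3e-04). An exon of PUF60, a U2AF-related factor, had 42.4% and 42.6% against 89.5% and 86.2%. They were the 2 higher of 49 exons of U2 snRNP proteins and CHERP partners, and none was lower. The SNHG8 exon of 194 nt, in a noncoding snoRNA host, had 45.3% and 52.1% against 99.2% and 97.0%. The cytoplasmic libraries were the higher ones in each, and the U2AF1 call was lost without cytoplasmic library 2. Other lists had calls as well, beside 1.04% lower and 1.19% higher over all exons. They were hnRNP (4 lower and 3 higher of 121), ribosomal protein (5 and 4 of 142), mitosis (1 and 3 of 95) and secretory genes (1 and 4 of 104). The NMD factors had 0 and 1 of 31, the snoRNA hosts 4 and 3 of 54 and the detained-intron genes 0 and 1 of 41. Line markers had 1 and 0 of 7 and nuclear noncoding RNA genes 2 and 0 of 17. Whether these shares differ from that of all exons was not tested. Kinases (14 exons), export genes (96), the RT-PCR genes (14) and markers of other cell types (2) had none.

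Alternative 3′ splice sites leaned the same way as introns, but less so by single events. Across events 57.1% had a lower mean in the cytoplasm, with a median difference of -0.45 points, beside 77.2% and -1.95 points for introns. With effective lengths ignored the median difference of single events was -0.04 points. The median share of the longer form, which uses the upstream site, was 71.8% and 72.4% in the whole cell and 65.7% and 66.8% in the cytoplasm, without overlap (difference -5.86 points, exact permutation p = 0.333, the smallest possible). Of 2136 events 88 (4.12%) were lower and 19 (0.89%) higher, 5.01% in all, and 0 were called with every residual in the dispersion. The share lower rose with the distance between the sites, from 0 of 336 events 3 nt apart to 24 of 201 (11.9%) over 300 nt apart. Counts depended on single libraries, and 12 and 19 events were called without cytoplasmic libraries 1 and 2, against 172 and 166 without whole-cell libraries 1 and 2.

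In CLDND1, a claudin-domain membrane protein, a form longer by 1047 nt had 87.4% and 91.7% against 19.3% and 21.2%. In RPLP0 and RPL27A, ribosomal proteins with 12 and 4 pseudogenes, the long forms had 95.4% and 93.6% against 2.91% and 3.18%, and 99.2% and 99.0% against 14.9% and 11.6%. In the other direction, the long form of NUSAP1, a spindle protein, had 28.6% and 29.2% against 61.7% and 75.4%. The calls of CLDND1 and NUSAP1 were lost without either cytoplasmic library.

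Alternative 5′ splice sites moved less, with a median long form of 62.8% and 62.5% in the whole cell and 60.3% in both cytoplasmic libraries. Of 1354 events 24 (1.77%) were lower and 18 (1.33%) higher, 3.1% in all, but 1 was called when genes with pseudogenes were left out of the fit. The split changed with the method, to 29 lower and 13 higher with limma, 10 and 23 with lengths ignored and 3 and 10 with no read filter. KAT2A, a histone acetyltransferase, had a long form at 36.9% and 33.7% against 0.807% in both cytoplasmic libraries, which each had 1 read of the long form and 34 of the short. UPP1, a uridine phosphorylase, had 24.7% and 29.1% against 78.5% and 76.4%.

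Mutually exclusive exons had the most calls and the least direction. Their median was 46.0% and 45.7% against 45.8% and 45%, while 456 (19.3%) were lower and 477 (20.2%) higher, 39.6% in all. Which exon counts as included is set by position, so the direction over all events names no form in common. Where the inclusion form was the longer, 254 of 1093 events were lower and 186 higher. Where it was the shorter, 195 of 1209 were lower and 281 higher. The part of effective length in this was not tested. In MED27, a Mediator subunit, the inclusion exon had 80.6% and 82.2% in the whole cell and 1.16% in both cytoplasmic libraries, each with 1 inclusion read. In GAS5 such an exon had 6.37% and 6.45% against 88.3% and 88.2%. Of 447 lower events also tested with EGFP siRNA, 332 were called there, and the Pearson correlation of the differences was 0.905 over 2250 events. No event of any type was called in opposite directions with the 2 siRNAs.

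Gene levels from the event reads were compared as well, on the log2(level + 0.01) scale after scaling by the median ratio. Of 6425 genes 970 (15.1%) were lower and 1127 (17.5%) higher in the cytoplasm by at least 1 on the log2 scale (adjusted p under 0.05, limma), 32.6% in all. Scaling by total reads moved the median of all genes by 0.15 on the log2 scale and gave 776 lower and 1381 higher. With fewer cells or less RNA per cell in a fraction, only relative levels can be read. The genes that were lower had a median exon G+C of 40.4% and those higher 58.3%, and the Pearson correlation of the change with G+C was 0.66 across 6378 genes, which are not independent. When genes were centred within bins of G+C, 579 were lower and 517 higher, and 744 of the calls were shared. The 5 largest decreases by the rule were RPSA, PHB, CDC42, RPL22 and ZHX1, of which all but ZHX1 have 7 or more pseudogenes, and RPSA, a ribosomal protein, had 11627 and 10196 event reads in the whole cell and 69 and 41 in the cytoplasm. The 5 largest increases were INO80E, RBM42, PDLIM4, C1orf86 and EPN1, which have no named pseudogene and changed by 3.73 to 4.37 on the log2 scale.

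Of 11 genes tested on the list of detained introns, 7 were lower in the cytoplasm as genes and none higher. Over all genes tested, 15.1% were lower and 17.5% higher. The median log2 change of the list was -1.73. When centred by G+C, 6 of the list remained lower, with a median of -1.02, beside 579 lower and 517 higher of all 6378 genes. OGT had a level of 8.65 and 9.46 in the whole cell and 1.25 and 1.31 in the cytoplasm, a log2 change of -2.81. CLK1, a kinase of SR proteins, changed by -1.91 and TAF1D by -1.88. The kinases had 4 lower (CLK1, CLK4, SRPK1 and PRPF4B) and 1 higher (CLK3) of 7, and 3 lower and none higher with G+C bins. The CLK3 call was also lost without cytoplasmic library 2.

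The snoRNA hosts had 6 lower and none higher of 13, with GAS5 at -1.11 and SNHG1 at -1.35, but 3 lower and 1 higher with G+C bins. These counts stand beside 15.1% lower and 17.5% higher over all genes. SR and TRA2 genes had 1 lower, TRA2A at -1.58, and 2 higher, SRSF2 at 1.4 and SRSF6 at 1.08, of 11. The TRA2A, GAS5 and SNHG1 calls were lost with G+C bins and that of SRSF6 without cytoplasmic library 1. SRSF6 was thus higher in the cytoplasm as a gene while its NMD exon was lower there, on 478 and 416 event reads in the whole cell and 217 and 156 in the cytoplasm. The median G+C of the detained-intron genes was 42% and that of the snoRNA hosts 43.9%, beside 47.1% for all genes.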

How the data were processed

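Per the labels and the study's methods, the authors aligned reads to hg19 with STAR 2.5.2b, used RSEM 1.2.25 and GENCODE, and compared siRNAs within each fraction with rMATS, whose version is not given in the sources used here. The authors' tables hold, per event, deposited inclusion and skipping read numbers of each library, as comma-separated cells, and effective lengths. Their 20 inclusion-level columns, p-values and differences, and the gene table of EBSeq results, were not used. Which cell belongs to which siRNA came from the order in the table's name. Read numbers were fitted with a quasi-binomial model with a length offset and dispersions moderated by limma 3.58.1 (R 4.3.3). A group whose libraries together held fewer than 10 reads of the rarer form gave no residual to the dispersion. This was chosen after the counts of calls with every residual had been seen, and it raised them for every event type. Events needed a mean of 10 reads per library in each fraction. Gene levels are summed event reads per length (pseudocount 0.01, mean of at least 20 reads). Exons, introns and pseudogenes are those of GENCODE 44 lifted to GRCh37. Clean events are those whose gene has no pseudogene named after it and, for introns, that are annotated and hold no exon. Named events are the largest called differences without overlap and at least 20 mean reads, up to 4 called events per gene list, the RT-PCR panel, the 5 genes with at least 100 mean reads that changed most each way and, added later, the largest clean ones. Members and lists were chosen with earlier results of these data known. No pair of libraries of a group had identical reads in more than 2.95% of events, so none was a duplicate. The scripts were tested on simulated data, in which 200 events per test changed by 1.5 in log odds. The rule for calls found 11.5% of changed introns and 6% of changed exons, and 64% of changed MXE. The interaction test found 12.5% of changed introns, with 10.7% of its calls false, and 1.5% of changed exons. Most differences of this size between the siRNAs would thus be missed. Analyses used Python 3.11.15, numpy 2.4.6, scipy 1.17.1 and samtools 1.23.1.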

Additional observations from a re-analysis of the deposited data

Results flagged for a closer look

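One intron moved in opposite directions with the siRNAs in every pair of libraries. The DGKA intron starting at 56347195 on chromosome 12 differed by -13.8 points between cytoplasm and whole cell with CHERP siRNA, from 20.0% and 7.58% to 0% in both cytoplasmic libraries. With EGFP siRNA it had 0% in both whole-cell libraries and 1.72% and 3.39% in the cytoplasm. It rests on 8 and 5 inclusion reads, the interaction of fraction and siRNA gave an unadjusted p of 0.0446 and an adjusted p of 0.969 in the quasi-binomial test, and the call was lost without whole-cell library 1 or either cytoplasmic library.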

How the results depend on the processing

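No called event or gene that the text names changed sign in any alternative. Some gene levels that were not called did, under G+C bins, total scaling, no read filter or with a library left out. The balance of A5SS calls turned with lengths ignored, no read filter, a difference of at least 0.2 and genes with pseudogenes left out. That of SE and MXE calls turned with at least 50 reads, and that of gene calls with G+C bins. Among introns (162 called), the count was 66 with at least 50 reads, 372 with the adjusted p alone, 76 with a difference of at least 0.2, 85 among introns of at least 300 nt and 92 with every residual in the dispersion. It was 96 to 216 with 1 library left out, with 96 and 99 without cytoplasmic libraries 1 and 2. The median intron difference of -5.06 points was -11.7 with lengths ignored, -8.38 with no read filter, -3.10 with at least 50 reads, -8.84 for introns of at least 300 nt and -4.84 for clean ones.

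Among SE (394 called, 184 lower and 210 higher), the count was 226 with at least 50 reads (116 lower and 110 higher). It was 12 with limma, 0 with every residual in the dispersion (806 at an unadjusted p under 0.05) and 181 in genes without a pseudogene. It was 175 to 608 with 1 library left out, with 605 and 608 without whole-cell libraries 1 and 2 and 175 without cytoplasmic library 1. Among A5SS (42), the count was 13 with no read filter, 27 with at least 50 reads, 0 with every residual (144 unadjusted) and 1 without pseudogene genes, and 38 to 96 with 1 library left out (86 and 96 without whole-cell libraries 1 and 2). Lengths ignored gave 10 lower and 23 higher, no read filter 3 and 10, and a difference of at least 0.2 gave 13 and 15, against 24 and 18.

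Among A3SS (107), the count was 46 with at least 50 reads, 161 with the adjusted p alone, 44 with limma, 0 with every residual (234 unadjusted) and 58 without pseudogene genes, and 12 to 172 with 1 library left out. MXE (933) gave 611 with a difference of at least 0.2 and 693 to 808 with 1 library left out. The interaction gave 0 to 2 introns with 1 library left out, with 2 without whole-cell EGFP library 2, and 0 exons throughout. Gene levels (2097) gave 1129 with at least 100 reads, 1096 with G+C bins and 2017 to 2224 with 1 library left out, and scaling by totals moved the median of all genes by 0.15 and gave 776 lower and 1381 higher. The causes were not tested, except that fewer events or genes enter with higher read minimums, introns of at least 300 nt, clean sets and pseudogene-free sets. The use of every residual, the clean and pseudogene-free sets and the G+C bins were chosen after seeing the data. No paired analysis was possible because the cells of the tables carry no replicate number that links a library of one fraction to a library of the other.

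The main limits are depth and read length. Cytoplasmic libraries held a median of 51 reads per tested intron against 134.8, read lengths differed between the fractions, and 2 libraries per group leave exact tests at p = 0.333 or above.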
